A study of Homo sapiens with 24 samples.

Results

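IRF2BP2 and its paralogs IRF2BP1 and IRF2BPL form a family of 3 genes, and all 3 were found by symbol among the 26645 gene entries of the count table and passed the filter on low counts that left 14741 entries. IRF2BP2 was chosen by its measured 2 h rise in MB468 cells, the strongest of all genes by significance, and its paralogs came with it by family. The MB468 2 h values of the 3 genes against 0 h are therefore given below as a description, with no test. The rule carried no threshold and so no members just inside or outside it.

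The series holds 24 poly(A) RNA-seq libraries in 8 groups of 3. MB468 cells (MDA-MB-468, a triple-negative breast cancer line) are Met dependent: they do not proliferate when methionine (Met) is replaced by its precursor homocysteine (Hcy). MB468res-R8 is a Met-independent derivative of MB468 obtained by long culture in Hcy medium, and it is 1 clone, so a difference between the lines is a difference between MB468 and that clone. The 0 h libraries of each line came from Met+ medium, which held 100 µM Met. The others came from cells moved for 0.5, 2 or 12 h to Met-Hcy+ medium, which held 370 µM DL-Hcy in place of Met. All 8 groups shared DMEM with dialyzed serum, glutamine, cysteine and vitamin B12. No library of Met+ medium at a later time entered the comparisons, so the loss of Met, the addition of Hcy, the medium change itself and time in culture cannot be told apart, and all 3 responses of a line share its 0 h libraries.

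The libraries held between 11745553 and 36496655 counts (median 20503827), and a member's count in a library ranged from 236 to 13852. All 7 epithelial markers checked had a median of at least 329 CPM (counts relative to library size), and the progesterone receptor PGR had a median of 0 with 81.4 for ERBB2 and 13.7 for ESR1. Of 7 markers of immune, endothelial and stromal cells, PTPRC, CD3E, COL1A2 and DCN had medians near 0, while COL1A1 had 35.8, CD68 4.05 and PECAM1 1.78. MB468 2 h replicate 2 stood apart by 8251 counts of the noncoding RNA RN7SK, against at most 357 in any other library. Without it the MB468 2 h values of the 3 genes against 0 h were 1.06 for IRF2BP2, 0.74 for IRF2BPL and -0.44 for IRF2BP1 on the log2 scale.

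The proteins of this family are nuclear cofactors without a classical DNA-binding domain. Each has a zinc finger near its amino terminus, through which members bind each other, and a RING-type domain at its carboxyl terminus, through which they bind other proteins. IRF2BP2 was found as a partner of the transcriptional repressor IRF2, represses NFATC2, and binds VGLL4, a cofactor of the TEAD factors at the end of the Hippo pathway. IRF2BP1 is a corepressor of the same kind and a ubiquitin ligase for JDP2, a repressor of AP-1 and ATF sites. IRF2BPL, also known as EAP1, is linked to neuronal development, to the onset of puberty and to the turnover of beta-catenin (CTNNB1).

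The 3 genes lie on different chromosomes, all on the minus strand of GRCh38. IRF2BP2 (ENSG00000168264.11, chromosome 1, 234604269 to 234610178) has 2 exons in its principal transcript. IRF2BPL (ENSG00000119669.5, chromosome 14, 77024543 to 77028708) and IRF2BP1 (ENSG00000170604.5, chromosome 19, 45883608 to 45886141) each lie in 1 exon. An antisense long noncoding gene overlaps IRF2BP2 (ENSG00000228830) and another overlaps IRF2BPL (ENSG00000273729). The library kit (TruSeq RNA v2) is of a kind that does not keep strand, so reads of these 2 members cannot be told apart from reads of their antisense partners.

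The bases just upstream of each start are shown as a description. A link between them and the responses of the 3 genes was not tested. These are the 250 bases before each gene's start in the RefSeq promoter table (GRCh38.p14), with matches to the motifs searched in capitals. The table lists a second start for IRF2BP2, inside the gene, and the window shown is that of the start at the gene's 5′ end. The motifs were the cAMP response element TGACGTCA (CRE), the AP-1 site TGACTCA, the C/EBP-ATF composite site TGATGCAA, the GC box GGGCGG, the ISRE core and the TEAD site CATTCC, on both strands.
IRF2BP2, chr1:234610179-234610428, minus strand: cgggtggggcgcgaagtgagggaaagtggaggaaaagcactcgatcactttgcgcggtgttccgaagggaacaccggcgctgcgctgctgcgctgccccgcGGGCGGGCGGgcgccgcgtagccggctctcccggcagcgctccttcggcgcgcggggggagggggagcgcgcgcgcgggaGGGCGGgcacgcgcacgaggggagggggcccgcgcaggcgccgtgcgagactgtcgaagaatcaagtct
IRF2BPL, chr14:77028709-77028958, minus strand: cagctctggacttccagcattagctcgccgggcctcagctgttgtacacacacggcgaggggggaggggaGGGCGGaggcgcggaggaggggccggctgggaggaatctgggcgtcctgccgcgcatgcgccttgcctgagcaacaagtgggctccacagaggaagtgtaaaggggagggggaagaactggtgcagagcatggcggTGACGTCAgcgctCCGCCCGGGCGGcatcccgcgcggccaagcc
IRF2BP1, chr19:45886142-45886391, minus strand: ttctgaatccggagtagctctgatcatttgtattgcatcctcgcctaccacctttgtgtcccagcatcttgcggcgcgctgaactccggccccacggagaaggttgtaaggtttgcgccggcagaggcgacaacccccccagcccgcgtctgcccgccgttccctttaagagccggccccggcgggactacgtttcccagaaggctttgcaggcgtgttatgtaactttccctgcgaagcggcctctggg

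Each promoter had its own set of matches. IRF2BPL held a CRE at position -44 from its start, a sequence found in 1.98% of 27305 promoters of the same length. IRF2BPL also held 3 GC boxes and IRF2BP2 held 3, of which 2 overlap in the run GGGCGGGCGG, and 44.6% of all promoters held at least 1. The window of the second IRF2BP2 start (chr1:234609526-234609775, not printed) was 84.8% GC and held 4 GC boxes. None of the 6 motifs matched in the IRF2BP1 window. Matches to the others were found in 4.92% (AP-1), 0.923% (C/EBP-ATF), 3.65% (ISRE core) and 14.0% (TEAD) of promoters. The windows were 74.4% GC for IRF2BP2, 68.8% for IRF2BPL and 60.8% for IRF2BP1, against a median of 58.0% over all promoters.

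The paralogs are alike enough that reads could in principle be confused, so the most alike stretch is shown. It lies near the 5′ end of the coding sequence, in the part that encodes the amino-terminal zinc finger. In the following 100 coding bases of IRF2BP2 (coding bases 38 to 137) and IRF2BPL (coding bases 32 to 131), read from GENCODE transcripts on GRCh38, capitals mark the bases that differ.
IRF2BP2: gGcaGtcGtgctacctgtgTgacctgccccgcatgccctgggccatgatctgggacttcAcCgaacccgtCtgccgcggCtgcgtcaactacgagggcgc
IRF2BPL: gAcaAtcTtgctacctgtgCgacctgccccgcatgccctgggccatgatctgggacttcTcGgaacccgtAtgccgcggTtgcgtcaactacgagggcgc

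This pair differed at 8 of 100 bases and shared an unbroken run of 39. The best 100-base stretch differed at 15 bases between IRF2BP1 and IRF2BP2 and at 18 between IRF2BP1 and IRF2BPL. No coding stretch of 100 bases, the read length, was identical between any of the 3. Over the aligned coding sequence the identity was 73.1% for IRF2BP2 and IRF2BPL, 71.0% for IRF2BP1 and IRF2BPL, and 68.3% for IRF2BP1 and IRF2BP2.

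IRF2BP2 was the most abundant member in every group, stood highest in MB468 at 2 h and lowest in MB468res-R8 at 12 h. Levels are given as normalized counts, counts scaled to a common library size after TMM normalization. In MB468 the 3 libraries held 4743, 4642 and 4727 normalized counts of IRF2BP2 at 0 h and 6692, 6692 and 6914 at 0.5 h. They held 9389, 10094 and 10265 at 2 h and 8462, 8286 and 8275 at 12 h. No library of any MB468 time point overlapped with another time point, and each library in Met-Hcy+ medium lay above each at 0 h.

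**Figure D1:**
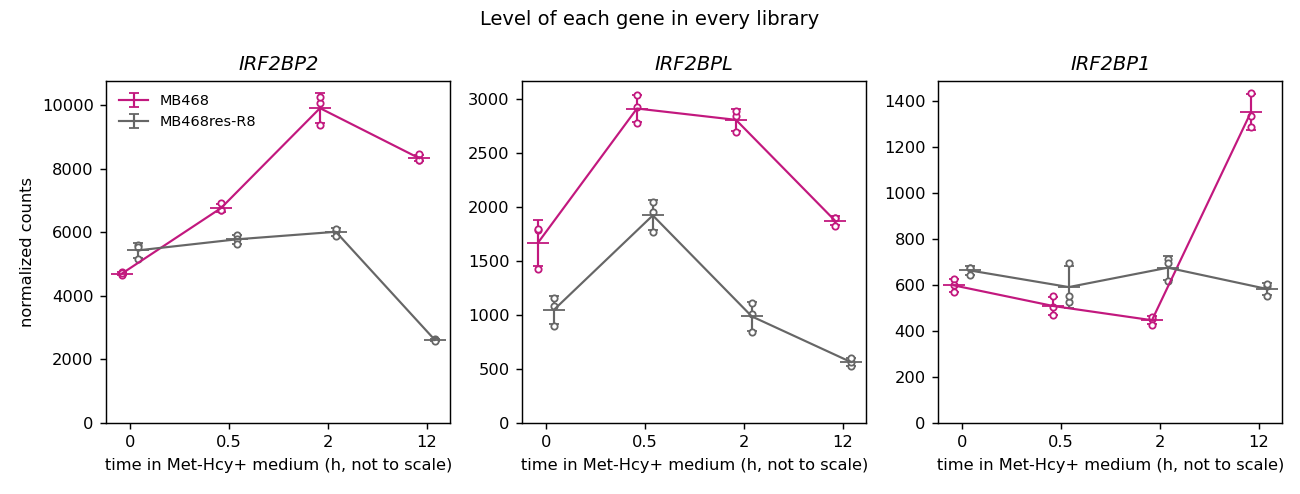
Normalized counts of IRF2BP2, IRF2BPL and IRF2BP1 (y axis, from 0, with a separate scale for each gene) at 0, 0.5, 2 and 12 h in Met-Hcy+ medium (x axis, evenly spaced) in MB468 (magenta) and MB468res-R8 (gray). Open circles are libraries, bars the mean and SD of 3; at 12 h IRF2BP2 stood at 8341 in MB468 and 2611 in MB468res-R8, and IRF2BP1 stood at 1353 and 583.

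MB468res-R8 followed another course. Its 3 libraries held 5609, 5526 and 5163 normalized counts of IRF2BP2 at 0 h, 5923, 5787 and 5638 at 0.5 h and 6049, 6122 and 5887 at 2 h. At 12 h they held 2650.1, 2607 and 2576. The 2 h libraries lay above the 0 h libraries by a narrow margin, and the 12 h libraries lay below every other library of the series.

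The fitted responses followed these levels. In MB468 the IRF2BP2 mean went from 4704 ± 54.3 (SD, n = 3) at 0 h to 6766 ± 128 at 0.5 h, a log2 fold change of 0.52 ± 0.04 (SE; edgeR adjusted p = 1.81e-14). It was 9916 ± 464 at 2 h, a log2 difference from 0 h of 1.08 ± 0.04 or 2.11-fold, which is the value that chose the gene. It was 8341 ± 105 at 12 h, still 0.83 ± 0.04 above 0 h (edgeR adjusted p = 7.80e-22), and -0.25 ± 0.04 from 2 h. The 0.5 h and 12 h responses share their 0 h libraries with the value that chose the gene. As these are bulk libraries, a change in the share of cells that express a gene and a change in its RNA per cell cannot be told apart, here or below.

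In MB468res-R8 the early rise was small and the late change went down. IRF2BP2 went from 5433 ± 237 at 0 h to 5783 ± 143 at 0.5 h, 0.09 ± 0.04 on the log2 scale, which did not pass the threshold (edgeR adjusted p = 0.0699; 95% interval 0.014 to 0.16 before adjustment). It rose to 6019 ± 120.3 at 2 h, by 0.15 ± 0.04 (edgeR adjusted p = 0.0139). It then fell to 2611 ± 37.2 at 12 h, 2.08-fold below 0 h (-1.06 ± 0.04, edgeR adjusted p = 3.39e-24). Of all tested genes, 8.29% fell at least as far from 0 h. The 2 h call was lost when a single library was left out: without the 0 h replicate 3 the value was 0.11 (edgeR adjusted p = 0.212), without the 2 h replicate 1 it was 0.14 (0.0590) and without the 2 h replicate 2 it was 0.13 (0.127).

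The difference between the lines in the IRF2BP2 response was tested where the MB468 2 h libraries took no part. Given as MB468res-R8 response less MB468 response, it was -0.43 ± 0.05 at 0.5 h (edgeR adjusted p = 5.77e-07) and -1.88 ± 0.06 at 12 h (edgeR adjusted p = 1.84e-27). At 2 h it was -0.93 ± 0.05, given without a test. With spike-in scaling, described below, the 0.5 h difference was -0.17 and did not pass the threshold (edgeR adjusted p = 0.547), while that at 12 h was -1.63 (edgeR adjusted p = 7.54e-17). At 12 h 2.64% of tested genes differed between the lines at least as far in the same direction. In Met+ medium the order of the lines was the other way round, with IRF2BP2 0.21 ± 0.04 higher in MB468res-R8 (edgeR adjusted p = 1.47e-05), although spike-in scaling turned this sign (-0.10). The 0.5 h, 12 h and Met+ comparisons of the lines all hold the MB468 0 h libraries, which took part in the value that chose IRF2BP2. Their p-values are therefore not independent of that choice.

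**Figure D2:**
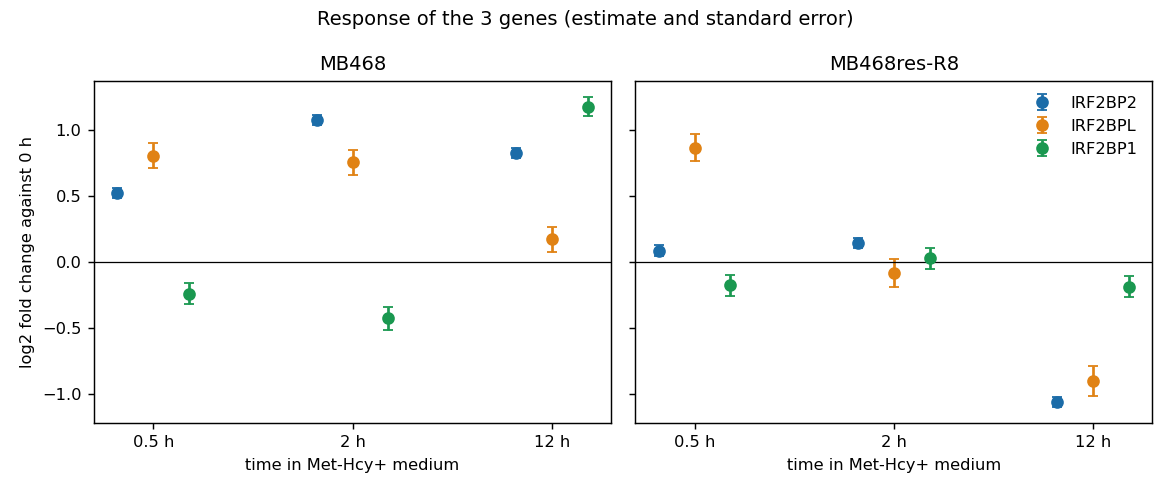
Log2 fold change against 0 h of the same line (y axis) of each gene at 0.5, 2 and 12 h in Met-Hcy+ medium (x axis) in MB468 (left) and MB468res-R8 (right); points are edgeR estimates and lines their SE. At 12 h all 3 MB468 points lie above 0, from 0.18 to 1.18, and all 3 MB468res-R8 points lie below it, from -1.06 to -0.19; with spike-in scaling the lowest of the MB468 points, IRF2BPL, moves to -0.072.

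IRF2BPL peaked early in both lines and fell below its starting level only in the values of MB468res-R8. Its MB468 libraries held 1787, 1419 and 1790.3 normalized counts at 0 h and 2920.1, 2775 and 3032 at 0.5 h. They held 2841, 2882 and 2689 at 2 h and 1898, 1819.7 and 1896 at 12 h. The 0.5 h and 2 h libraries overlapped with each other and lay well above the rest, and the 12 h libraries lay just above those at 0 h.

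The MB468res-R8 libraries were lower for IRF2BPL at each matched time. They held 1079, 1158 and 897 normalized counts at 0 h, 1768, 1948 and 2042 at 0.5 h and 1112, 1004 and 838 at 2 h. At 12 h they held 524, 567 and 597. The rise was thus seen at 0.5 h alone, the 0 h and 2 h libraries overlapped, and the 12 h libraries were the lowest of the series.

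IRF2BPL rose in both lines at 0.5 h. The log2 fold change was 0.81 ± 0.10 in MB468 (edgeR adjusted p = 1.30e-06) and 0.87 ± 0.10 in MB468res-R8 (edgeR adjusted p = 9.79e-07). The difference between the lines was 0.06 ± 0.14 (95% interval -0.21 to 0.33; edgeR adjusted p = 0.918), and it was -0.026 without the MB468res-R8 0 h replicate 3. With spike-in scaling the rises were 0.58 in MB468 and 0.92 in MB468res-R8, a difference of 0.33 (edgeR adjusted p = 0.363). At this time 3.05% of tested genes in MB468 and 2.42% in MB468res-R8 rose at least as far from 0 h.

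At 2 h IRF2BPL was above its 0 h level in MB468 and near it in MB468res-R8. It stood at 2804 ± 101 against 1666 ± 213 at 0 h in MB468, a log2 difference of 0.76 ± 0.10 given without a test. In MB468res-R8 it stood at 985 ± 138 against 1044 ± 134, a log2 difference of -0.08 ± 0.10 (95% interval -0.29 to 0.12; edgeR adjusted p = 0.855), which became 0.0045 without the 2 h replicate 3. From 0.5 h to 2 h it fell by 0.95 ± 0.10 on the log2 scale in MB468res-R8 (edgeR adjusted p = 2.59e-07), and in MB468 the difference over the same interval was -0.05 ± 0.09. The difference between the lines at 2 h, MB468res-R8 less MB468, was -0.84 ± 0.14, also given without a test. With spike-in scaling the MB468 value at 2 h was 0.33 and the difference between the lines -0.45.

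By 12 h IRF2BPL had fallen in MB468res-R8 to 563 ± 36.5, 1.87-fold below 0 h (-0.90 ± 0.11, edgeR adjusted p = 8.95e-07). In MB468 it was 1871 ± 44.6, and its log2 fold change of 0.18 ± 0.09 did not pass the threshold (95% interval -0.010 to 0.36; edgeR adjusted p = 0.106), and with spike-in scaling it was -0.072. Leaving out 1 library in turn gave values from 0.063 to 0.23, none of them called. That call depended on the low-count filter: with no filter the edgeR adjusted p was 0.00213 at a log2 fold change of 0.17. The responses differed between the lines by -1.08 ± 0.15 (edgeR adjusted p = 3.49e-06). In Met+ medium IRF2BPL was already lower in MB468res-R8, by -0.66 ± 0.10 (edgeR adjusted p = 1.65e-05).

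IRF2BP1 had its largest change at 12 h in MB468. Its MB468 libraries held 625, 567 and 601 normalized counts at 0 h, 471, 551 and 504 at 0.5 h and 454, 459 and 427 at 2 h. At 12 h they held 1335, 1286 and 1437. The 0.5 h and 2 h libraries lay below those at 0 h, and the 12 h libraries lay above every other library of the series.

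In MB468res-R8 the libraries of IRF2BP1 stayed within a narrow band. They held 674, 642 and 673 normalized counts at 0 h and 528, 551 and 694 at 0.5 h. They held 712, 698 and 615 at 2 h and 594, 551 and 603 at 12 h. The 0.5 h libraries spread over most of that band, and the 12 h libraries lay just below those at 0 h.

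In MB468 IRF2BP1 fell at 0.5 h from 598 ± 29.2 to 509 ± 40.3, a log2 fold change of -0.24 ± 0.08 (edgeR adjusted p = 0.0222). This call was lost without the 0 h replicate 1 (-0.21, edgeR adjusted p = 0.0910) and without the 0.5 h replicate 1 (-0.19, edgeR adjusted p = 0.139). At 2 h it was 446 ± 17.1, a log2 difference of -0.42 ± 0.09 given without a test, so it lay on the other side of 0 from both paralogs. At 12 h it rose to 1353 ± 77.2, 2.27-fold above 0 h (1.18 ± 0.08, edgeR adjusted p = 2.27e-17). The step from 2 h to 12 h was 1.60 ± 0.08, and 2.05% of tested genes rose at least as far in that interval.

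In MB468res-R8 the IRF2BP1 values stayed near 0 h. The log2 fold change was -0.17 ± 0.08 at 0.5 h (edgeR adjusted p = 0.0934) and 0.03 ± 0.08 at 2 h (95% interval -0.12 to 0.19; edgeR adjusted p = 0.944; -0.013 with spike-in scaling). The 0.5 h value was -0.30 without the 0.5 h replicate 3 (edgeR adjusted p = 0.00295), and the 2 h value was -0.0063 without the 2 h replicate 1. At 12 h it was -0.19 ± 0.08, just past the threshold (edgeR adjusted p = 0.0413). That call was lost without 1 library in 5 cases. The value was -0.15 without the 0 h replicate 1 (edgeR adjusted p = 0.160) and -0.18 without the 0 h replicate 3 (edgeR adjusted p = 0.0788). It was -0.18 without the 12 h replicate 1 (edgeR adjusted p = 0.0911), -0.15 without the 12 h replicate 2 (edgeR adjusted p = 0.137) and -0.19 without the 12 h replicate 3 (edgeR adjusted p = 0.0740). The responses differed between the lines by 0.06 ± 0.11 at 0.5 h (edgeR adjusted p = 0.889; -0.049 without the MB468res-R8 0.5 h replicate 3) and by -1.37 ± 0.11 at 12 h (edgeR adjusted p = 7.21e-14). At 2 h the difference was 0.45 ± 0.12, given without a test. In Met+ medium the lines differed by 0.15 ± 0.08, which did not pass the threshold (edgeR adjusted p = 0.108; -0.16 with spike-in scaling).

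Counted over the 3 genes, 2 differed between the lines at 0 h, where 53.5% of all tested genes did. At 0.5 h all 3 changed in MB468, where 33.9% of genes did, and 1 of 3 in MB468res-R8, where 33.7% did. In MB468res-R8 at 2 h 1 of 3 changed, against 4.37% of genes. At 12 h 2 of 3 changed in MB468 (70.8% of genes) and 3 of 3 in MB468res-R8 (61.3% of genes), so that count at 12 h is near what most genes showed. The difference between the lines passed the threshold for 1 of 3 at 0.5 h (2.9% of genes) and 3 of 3 at 12 h (56.5% of genes). In the MB468 2 h comparison, which chose IRF2BP2, 16.3% of genes were called, and in the line difference at 2 h 5.07% were. From 0.5 to 2 h in MB468res-R8, where IRF2BPL fell, 35.3% of genes were called.

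ERCC spike-ins had been added to the RNA, and scaling by their total in place of TMM shifted all genes together. The median log2 fold change of all tested genes then moved to -0.20 at 0.5 h, -0.42 at 2 h and -0.23 at 12 h in MB468, to -0.31 for MB468res-R8 against MB468 at 0 h, and by less than these in the MB468res-R8 responses. On that scale IRF2BP2 still stood above 0 h in MB468, by 0.31 at 0.5 h (edgeR adjusted p = 0.0677), 0.65 at 2 h and 0.59 at 12 h (edgeR adjusted p = 1.58e-05). At 0 h the sign turned for IRF2BP2 (-0.10) and IRF2BP1 (-0.16) between the lines, and at 12 h in MB468 it turned for IRF2BPL (-0.072). The 12 h falls of IRF2BP2 (-1.03) and IRF2BPL (-0.86) in MB468res-R8 and the 12 h rise of IRF2BP1 (0.94) in MB468 passed the threshold on both scales.

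Per kilobase of exon, which allows genes to be compared, IRF2BP2 made up between 57.1% and 69.1% of the summed family level in every group. The sum was 1511 ± 72.0 normalized counts per kb at 0 h in MB468, 2157 ± 47.8 at 0.5 h, 2693 ± 75.8 at 2 h and 2534 ± 42.4 at 12 h. In MB468res-R8 it was 1523 ± 70.7, 1769 ± 39.8, 1622 ± 72.7 and 851 ± 11.2 at the same times. With TMM the 2 lines thus had like sums in Met+ medium and stood apart at 12 h. The sums were not taken with spike-in scaling. On that scale each member was lower in MB468res-R8 than in MB468 at 0 h. The log2 differences were -0.10 for IRF2BP2, -0.99 for IRF2BPL and -0.16 for IRF2BP1, and only that of IRF2BPL was called.

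The makeup of the sum changed as well. In MB468 the share of IRF2BP1 was 15.6% ± 0.251 at 0 h, 6.55% ± 0.342 at 2 h and 21.1% ± 0.947 at 12 h. The share of IRF2BPL was 26.4% ± 2.20 at 0 h, 32.4% ± 0.919 at 0.5 h and 17.7% ± 0.130 at 12 h. In MB468res-R8 the share of IRF2BP1 was 17.2% ± 1.11 at 0 h and 27.0% ± 0.944 at 12 h, where its own level stayed near 0 h and those of both paralogs were lower.

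**Figure D3:**
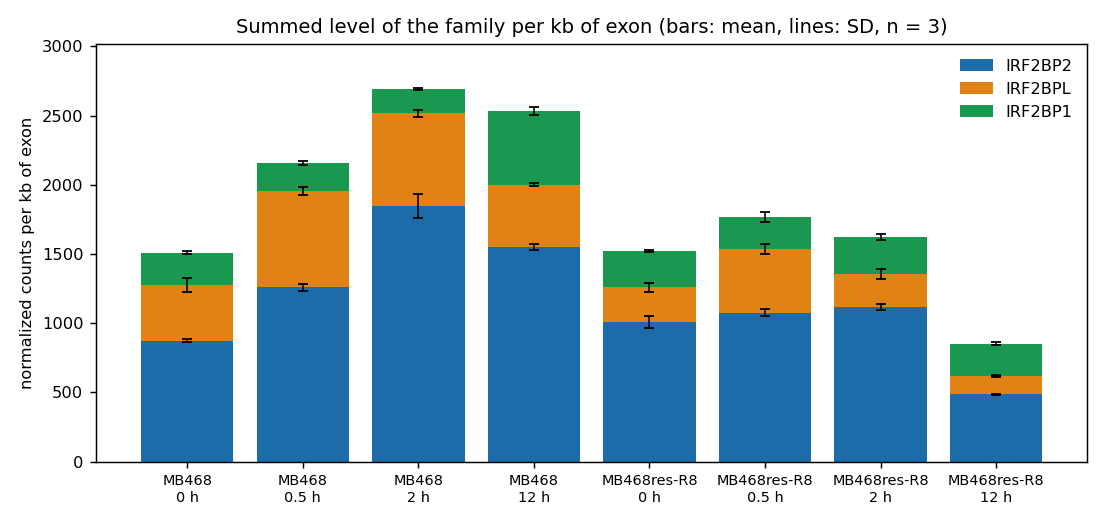
Mean normalized counts per kb of exon of the 3 genes (y axis, from 0), stacked for each of the 8 groups (x axis); lines at the top of each segment are the SD of that gene over 3 libraries. The stack is 1511 and 1523 in the lines at 0 h and 2534 and 851 at 12 h, with IRF2BP2 the largest segment in each.

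Ordered by level, the 8 groups ranked differently for each gene. For IRF2BP2 the order was MB468 at 2, 12 and 0.5 h, then MB468res-R8 at 2, 0.5 and 0 h, MB468 at 0 h and MB468res-R8 at 12 h; only MB468res-R8 at 2 h and 0.5 h overlapped as neighbours. For IRF2BPL the order was MB468 at 0.5 and 2 h, MB468res-R8 at 0.5 h, MB468 at 12 and 0 h and MB468res-R8 at 0, 2 and 12 h. Overlapping neighbours there were MB468 at 0.5 and 2 h, MB468res-R8 at 0.5 h with MB468 at 12 h, and MB468res-R8 at 0 and 2 h. For IRF2BP1 MB468 at 12 h led by 2.00-fold over the next group, the other groups followed within a narrow range, and MB468 at 2 h came last. Neighbouring groups of IRF2BP1 overlapped for MB468res-R8 at 2 and 0 h, MB468 at 0 h with MB468res-R8 at 0.5 h, and MB468res-R8 at 0.5 and 12 h.

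Across all 24 libraries the log2 CPM of IRF2BP2 and IRF2BPL had a Pearson r of 0.80 (Spearman rho 0.72), given as a description of libraries that share line, medium and time. The same r was 0.56 within the 12 MB468 libraries and 0.78 within the 12 of MB468res-R8. For IRF2BP1 with IRF2BP2 it was 0.14 and for IRF2BP1 with IRF2BPL it was -0.12.

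The genes most like each member across the 24 libraries were taken by Pearson r of log2 CPM among the 9872 genes whose mean log2 CPM reached 3. For IRF2BP2 they were TSC22D1 (r = 0.94), ATF4 (0.93), CCDC82 (0.92), FAM46B (0.92) and TNFAIP3 (0.92). TSC22D1 is a leucine zipper protein induced by TGF-beta, ATF4 the transcription factor of the amino acid and unfolded protein responses, and TNFAIP3 an inhibitor of NF-κB signaling. TSC22D1 went from 2386 ± 35.5 normalized counts at 0 h to 6485 ± 457 at 2 h in MB468, and stood at 2786 ± 338 at 0 h and 1493 ± 61.3 at 12 h in MB468res-R8. ATF4 had a narrower range, from 25668 ± 108 at 0 h to 31966 ± 526 at 2 h in MB468 and down to 19919 ± 286 at 12 h in MB468res-R8. None of these 5 genes was among the 5 nearest by Spearman rho, and 2 were by the 8 group means.

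For IRF2BPL the nearest genes were NCOA7 (r = 0.96), DEPDC5 (0.96), ETV5 (0.95), RILPL2 (0.94) and LRRCC1 (0.94). NCOA7 is a nuclear receptor coactivator, DEPDC5 a subunit of the GATOR1 complex that restrains mTORC1, and ETV5 an ETS transcription factor. NCOA7 stood at 5323 ± 443 at 0 h and 11252 ± 841 at 0.5 h in MB468 and at 3650.2 ± 157 and 6834 ± 293 in MB468res-R8, the same early peak in both lines. For IRF2BP1 the nearest were ING2 (0.96), SLC35C1 (0.96), FN3KRP (0.95), DYRK2 (0.95) and KBTBD4 (0.95). ING2, a PHD finger subunit of a histone deacetylase complex, went from 365 ± 35.8 at 0 h to 908 ± 15.7 at 12 h in MB468, and stood at 350.4 ± 8.72 at 12 h in MB468res-R8. By Spearman rho 3 of the 5 were shared for IRF2BPL and 0 for IRF2BP1. The 5 named genes were not alone: 85 genes reached an r of 0.9 with IRF2BP1, 32 with IRF2BPL and 8 with IRF2BP2.

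The TEAD and YAP targets, which stand downstream of the VGLL4 and TEAD proteins, gave the clearest counts of the 4 lists examined beside the family. Of 6 such genes, 5 were higher at 2 h in MB468, where 8.88% of all genes were called higher, and the list median was 0.67 against 0.0073 for all genes. In MB468res-R8 at 2 h AMOTL2 alone was called, as lower, where 2.52% of all genes were called higher and 1.85% lower. At 12 h in MB468res-R8 all 6 were lower, against 31.1% of all genes, with a list median of -1.08 against -0.019. Already at 0.5 h 3 were higher and 1 lower in MB468 (17.6% and 16.4% of all genes). In MB468res-R8 2 were higher and 2 lower at 0.5 h (17.4% and 16.3%). AJUBA and CTGF were higher in both lines at that time, and with spike-in scaling CTGF alone was.

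CTGF (now CCN2) and CYR61 (now CCN1), secreted matricellular proteins, had the highest levels of the list. In MB468 CYR61 went from 6694 ± 61.9 normalized counts in Met+ medium to 13527 ± 201 after 2 h and 3572 ± 363 after 12 h. In MB468res-R8 it went from 8156 ± 284 to 7349 ± 237 and 1172 ± 141. CTGF rose at 2 h in MB468 by 1.34 ± 0.09 on the log2 scale (edgeR adjusted p = 4.91e-09), and had fallen by 12 h in MB468 (-0.62 ± 0.09, edgeR adjusted p = 7.89e-06) and MB468res-R8 (-2.37 ± 0.10, edgeR adjusted p = 4.89e-13). Over the whole list at 12 h in MB468, 3 of 6 were higher (AJUBA, AMOTL2 and LATS2) and 2 lower (CTGF and CYR61), against 36.1% and 34.7% of all genes, with a list median of 0.22.

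In the difference between the lines the TEAD and YAP targets were lower in MB468res-R8 for 4 of 6 at 2 h (2.88% of genes were called lower) and 6 of 6 at 12 h (30.3%). With spike-in scaling those counts were 2 of 6 and 6 of 6, where 65 and 1745 of all 14741 genes were called lower. On that scale 3 of 6 were higher at 2 h in MB468 and AJUBA was lower, beside 240 genes called higher and 9271 lower. At 12 h in MB468res-R8 5 of 6 were then lower, beside 3121 of all genes. For the cofactors VGLL4, TEAD1, TEAD2, TEAD3, TEAD4, YAP1 and WWTR1 at 2 h in MB468 the edgeR adjusted p lay between 0.348 and 0.933, while with spike-in scaling all 7 were called lower, as were 9271 of all 14741 tested genes. At 12 h WWTR1, the paralog of YAP1, fell in MB468 (-1.59 ± 0.04, edgeR adjusted p = 1.39e-29) and its response differed between the lines by 1.62 (edgeR adjusted p = 4.08e-24).

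**Figure D4:**
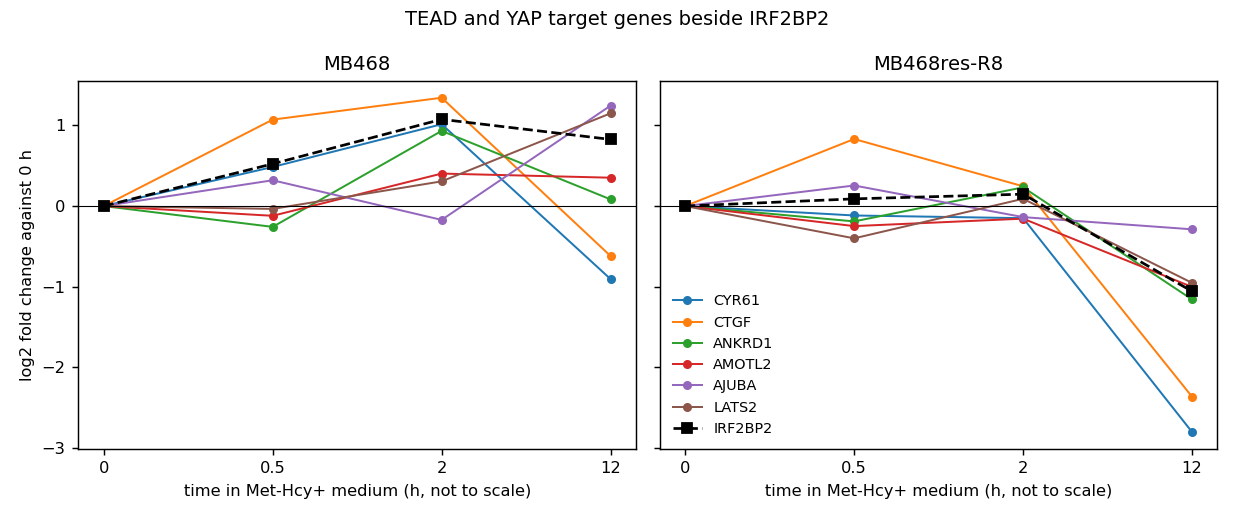
Log2 fold change against 0 h of the same line (y axis) at 0, 0.5, 2 and 12 h in Met-Hcy+ medium (x axis, evenly spaced) of 6 TEAD and YAP target genes (colored lines) and IRF2BP2 (dashed black line) in MB468 (left) and MB468res-R8 (right); points are edgeR estimates. In MB468res-R8 all 6 targets and IRF2BP2 lie below 0 at 12 h, with CYR61 lowest at -2.80; in MB468 CYR61 and CTGF lie below 0 and IRF2BP2 at 0.83.

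Of the proteins reported to bind or be regulated by the family, 17 of 18 were tested. At 0.5 h in MB468 9 were higher and 6 lower, where 17.6% and 16.4% of all genes were called higher and lower. At 12 h they were again 9 and 6, against 36.1% and 34.7%. With spike-in scaling the counts were 4 and 6 at 0.5 h and 2 and 6 at 12 h. On that scale 459 of all 14741 genes were called higher and 2828 lower at 0.5 h, and 2538 and 5922 at 12 h. At 2 h in MB468 4 were higher (ATF7, JDP2, NFATC2 and VEGFA) and 1 lower (FASTKD2; 7.47% of all genes), but with spike-in scaling these 4 were no longer called higher and 12 of 17 were called lower, where 240 of all 14741 genes were called higher and 9271 lower. In MB468res-R8 the counts were 8 higher and 4 lower at 0.5 h (17.4% and 16.3% of all genes), VEGFA alone as lower at 2 h, and 6 and 6 at 12 h (30.2% and 31.1%). With spike-in scaling they were 8 and 0 at 0.5 h, where 1194 of all genes were called higher and 829 lower. VEGFA was then not called at 2 h, and the 12 h counts were 4 and 3, beside 2766 and 3121 of all genes.

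JDP2 and VEGFA were the members of this list whose response was lower in MB468res-R8 than in MB468 at each time. JDP2 differed by -0.43 at 0.5 h (edgeR adjusted p = 0.0258), -0.41 at 2 h (edgeR adjusted p = 0.0313) and -2.10 at 12 h (edgeR adjusted p = 2.33e-18). Its level at 12 h was 968 ± 20.3 in MB468 and 291 ± 26.9 in MB468res-R8. VEGFA, the angiogenic growth factor, differed by -0.33, -0.88 and -1.24 at the same times (edgeR adjusted p = 0.000762, 2.13e-13 and 1.85e-19). With spike-in scaling JDP2 kept its sign (-0.16, -0.026 and -1.83) and so did VEGFA (-0.067, -0.50 and -0.98), and only their 12 h differences were called.

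Of the 9 interferon regulatory factors 7 were tested, and IRF4 and IRF8 did not pass the filter. IRF2, the repressor by which the family was found, rose at 0.5 h by 0.64 ± 0.08 in MB468 (edgeR adjusted p = 2.62e-08) and by 0.75 ± 0.08 in MB468res-R8 (edgeR adjusted p = 4.42e-10). At 2 h its log2 fold change was 0.07 ± 0.09 and 0.08 ± 0.08, neither past the threshold, and the MB468 value turned to -0.35 with spike-in scaling. At 12 h it was up again by 0.44 ± 0.08 (edgeR adjusted p = 5.98e-06) and 0.77 ± 0.08 (edgeR adjusted p = 5.34e-11). With spike-in scaling the 12 h rise of IRF2 was not called in MB468 and was still called in MB468res-R8. IRF1, an activator that shares binding sites with IRF2, fell at 0.5 h in both lines (-0.33 ± 0.08 and -0.27 ± 0.08, edgeR adjusted p = 0.000689 and 0.00580) and at 12 h in MB468res-R8 (-1.12 ± 0.08, edgeR adjusted p = 2.41e-14). Its 0.5 h fall in MB468res-R8 was -0.22 with spike-in scaling and was no longer called. At 2 h in MB468 IRF1 was higher by 0.30 ± 0.08 (edgeR adjusted p = 0.00332), but the sign turned with spike-in scaling (-0.13). Of the 7, 2 rose and 2 fell at 0.5 h in MB468 (17.6% and 16.4% of all genes) and 1 rose and 3 fell at 12 h (36.1% and 34.7%). In MB468res-R8 2 rose and 1 fell at 0.5 h (17.4% and 16.3%) and 1 rose and 2 fell at 12 h (30.2% and 31.1%).

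All 5 NFAT genes were tested, of which NFATC2 encodes the protein that IRF2BP2 is reported to repress. Its RNA levels below do not measure that repression, which was not tested. NFATC2 was lower in MB468res-R8 at 0 h (a log2 difference of -1.58 ± 0.10, edgeR adjusted p = 5.36e-16), where 3 of 5 NFAT genes and 27.1% of all genes were lower. In MB468 its normalized counts were 935 ± 127 in Met+ medium, then 546 ± 3.75 after 0.5 h, 1203 ± 141 after 2 h and 748 ± 12.2 after 12 h. In MB468res-R8 its group means lay between 289 and 359.5.

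Tested genes within 500 kb of each start were examined to see whether the members moved with their neighborhoods. IRF2BP2 had 5 such neighbors, of which 1 rose and 4 fell at 12 h in MB468, where IRF2BP2 itself rose and 36.1% of all genes rose and 34.7% fell. Its nearest upstream neighbor, LINC01132, a noncoding gene at -113.9 kb, fell from 140.4 ± 4.75 to 6.97 ± 2.37 normalized counts in MB468 (-4.39 ± 0.28, edgeR adjusted p = 1.01e-16). In MB468res-R8 the same gene went from 110.3 ± 23.8 to 31.2 ± 14.5 (-1.77 ± 0.23, edgeR adjusted p = 2.95e-08), where 2 of the 5 neighbors rose and 3 fell, against 30.2% and 31.1% of all genes.

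IRF2BP1 lies in a gene-rich region with 21 tested neighbors. At 12 h in MB468 7 rose and 10 fell (36.1% and 34.7% of all genes), with a median of -0.21. The nearest, MYPOP, a repressor of the MYB family at -16.5 kb, rose from 109 ± 12.9 to 304 ± 29.4 (1.48 ± 0.12, edgeR adjusted p = 3.53e-14), and in MB468res-R8 by 0.39 ± 0.12 (edgeR adjusted p = 0.00596). In MB468res-R8 3 rose and 13 fell at 12 h (30.2% and 31.1% of all genes), among them the AP-1 gene FOSB at 418.1 kb downstream (-5.15 ± 0.33, edgeR adjusted p = 2.49e-10). Around IRF2BPL there were 10 neighbors, of which 5 rose and 3 fell in MB468 and 5 rose and 4 fell in MB468res-R8 at 12 h, with medians of 0.028 and 0.0087, beside the same shares of all genes.

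**Figure D5:**
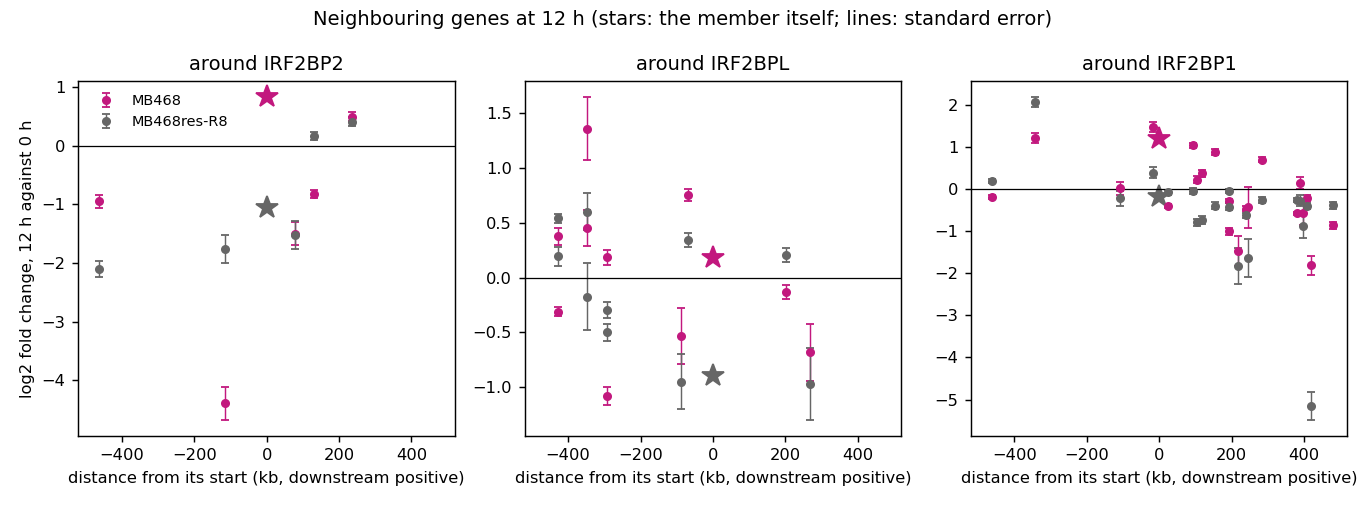
Log2 fold change at 12 h against 0 h (y axis, a separate scale for each panel) of tested genes within 500 kb of each member, by distance of their start from that of the member (x axis, kb, downstream positive), in MB468 (magenta) and MB468res-R8 (gray). Points are edgeR estimates with SE and stars the member itself; around IRF2BP2 the lowest point is LINC01132 in MB468 at -4.39, beside a star at 0.83.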

How the data were processed

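Per the study's methods, RNA was spiked with ERCC controls, prepared with the TruSeq RNA kit v2 after poly(A) selection and read as single ends of 100 bases; that kit is taken here as one that does not keep strand, which the methods do not state. The authors aligned reads with HISAT2 2.1.0 to GRCh38 (hg38) and counted them with featureCounts (Subread 1.5.3). The deposited count table holds raw counts for 24 libraries, 26645 gene entries and 92 spike-ins. A deposited table of normalized counts, read here as signal, was made by the authors with DESeq2 1.22.2 for 18 libraries and served as an alternative only. The authors' own comparisons (log2 fold changes and p-values) were not used.

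Raw counts were analyzed in R 4.3.3 with edgeR 4.0.16: filterByExpr (minimum count 10, minimum total 15), TMM, 8 group means and robust quasi-likelihood tests with Benjamini-Hochberg adjustment over 14741 genes. Calls had an adjusted p under 0.05. The fit was tested on simulated data. For normalized counts, each count was scaled from its TMM library size to the mean of these sizes. Intervals were taken from the SE. Replicate libraries are not stated to be separate cultures, so p-values measure the spread between libraries, and no pair agreed within counting noise.

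The members and lists were chosen with earlier results of these data known. Genes named were the 3 members, called members of the 4 lists, the 5 most alike genes per member and neighbors within 500 kb; values of other list members are given where a count rests on them. Annotation was GENCODE v44 and promoters came from RefSeq. Alternatives were DESeq2 1.42.0 (size factors, Wald test), spike-in totals, a spike-in covariate, other filters, only the libraries compared, a replicate block, a threshold of 0.01 and leaving out each library.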

Additional observations from a re-analysis of the deposited data

Results flagged for a closer look

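The difference between the lines in a response, that of MB468res-R8 minus that of MB468, was tested for each of the 3 genes at 0.5 h and 12 h. These tests share the MB468 0 h libraries with the value that chose IRF2BP2, so for that gene they are not independent of the choice. IRF2BP2 differed by -0.43 on the log2 scale at 0.5 h (edgeR adjusted p = 5.77e-07) and by -1.88 at 12 h (edgeR adjusted p = 1.84e-27). IRF2BP1 differed by -1.37 at 12 h (edgeR adjusted p = 7.21e-14) and IRF2BPL by -1.08 (edgeR adjusted p = 3.49e-06). At 2 h IRF2BPL differed by -0.84 and IRF2BP1 by 0.45, in opposite directions; both are given as a description with no test, because the MB468 2 h libraries chose the gene family. With spike-in scaling the values were -0.17 for IRF2BP2 at 0.5 h (edgeR adjusted p = 0.547) and -0.45 for IRF2BPL at 2 h. At 12 h each MB468 library lay above each MB468res-R8 library of the same time for all 3 genes. The share of all genes that separated in this way was not counted. In the line difference at 12 h 56.5% of all tested genes were called, and 30.3% were called lower.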

How the results depend on the processing

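Over the alternatives other than leaving out a library, 366 of 390 member results kept their direction and their side of the threshold, and 284 of 306 did so when a library was left out. Scaling by the spike-in total turned the sign of IRF2BP1 (-0.16) and IRF2BP2 (-0.10) at 0 h, IRF2BPL at 12 h in MB468 (-0.072), IRF2BP1 at 2 h in MB468res-R8 (-0.013) and IRF2BP2 from 0.5 to 2 h in MB468res-R8 (-0.036). It ended the calls of IRF2BP2 at 0.5 h in MB468 (0.31), at 2 h in MB468res-R8 (0.10) and in the line difference at 0.5 h (-0.17). It also ended those of IRF2BP1 in MB468res-R8 at 12 h (-0.17), from 0.5 to 2 h (0.13) and from 2 to 12 h (-0.16). Values that involve the MB468 2 h libraries are given without a test. They were -0.063 for IRF2BP2 from 2 to 12 h in MB468 and -0.40 for IRF2BP1 from 0.5 to 2 h in MB468. For IRF2BPL the line difference at 2 h was -0.45. The same scaling called 3287 genes at 0.5 h and 9511 at 2 h in MB468, 2023, 180 and 5887 at 0.5, 2 and 12 h in MB468res-R8, 2380 from 0.5 to 2 h there and 101 in the line difference at 0.5 h, against 5000, 2410, 4967, 644, 9036, 5207 and 428 with TMM. The cause was not tested.

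With an adjusted p under 0.01, 1580 genes were called at 2 h in MB468, 392 at 2 h in MB468res-R8, and 232 and 431 in the line difference at 0.5 and 2 h. The stricter threshold ended the call of IRF2BP1 at 0.5 h in MB468 (-0.24). In MB468res-R8 it ended those of IRF2BP1 at 12 h (-0.19), from 0.5 to 2 h (0.21) and from 2 to 12 h (-0.22). It also ended that of IRF2BP2 at 2 h in MB468res-R8 (0.15). The IRF2BP1 line difference at 2 h (0.45) involves the MB468 2 h libraries and is given without a test. The DESeq2 Wald test ended the call of IRF2BP1 at 12 h in MB468res-R8 (-0.18, adjusted p = 0.0545). Fitting only the libraries compared ended those of IRF2BP2 at 2 h (0.14) and IRF2BP1 from 0.5 to 2 h (0.21) in MB468res-R8. With no low-count filter IRF2BPL at 12 h in MB468 became called (0.17). These causes were not tested.

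Leaving out each library in turn gave -0.31 to -0.19 for IRF2BP1 at 0.5 h in MB468 and, in MB468res-R8, -0.30 to -0.10 at 0.5 h, -0.0063 to 0.085 at 2 h, -0.21 to -0.15 at 12 h, 0.13 to 0.33 from 0.5 to 2 h and -0.25 to -0.18 from 2 to 12 h. It gave 0.11 to 0.17 for IRF2BP2 and -0.17 to 0.0045 for IRF2BPL at 2 h in MB468res-R8. The line difference at 0.5 h ranged from -0.049 to 0.15 for IRF2BP1 and from -0.026 to 0.17 for IRF2BPL. The genes called at 2 h in MB468res-R8 ranged from 348 to 667, with 410 without the 0 h replicate 3 and 348 without the 2 h replicate 2.

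Same-numbered replicates did not deviate together in every pair of any comparison, so the labels' numbers were not taken as pairs. The fit with the replicate number as a block gave IRF2BP2 0.52 at 0.5 h and 0.83 at 12 h in MB468 and -1.06 at 12 h in MB468res-R8, and it changed no member's call. Depth limited little: the lowest member count was 236.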
